A study of Mus musculus with 12 samples.

Results

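The imprinted growth network genes are 10 genes, H19, Igf2, Igf2r, Dlk1, Meg3, Grb10, Plagl1, Ndn, Peg3 and Impact, chosen by gene symbol from the 41128 genes of a count table of mouse PreMegEs, and each symbol was found once. PreMegEs are sorted bone marrow progenitors that give rise to megakaryocytes and erythroid cells. RNA-Seq was carried out on 12 libraries in 4 groups of 3, and each library held cells pooled from 3 C57BL/6 mice aged 12 to 16 weeks, so single animals were not measured. WT PreMegEs came from wild type mice. P2+ and P2- PreMegEs came from mice carrying 1 reporter allele of Runx1, in which GFP marks the distal promoter P1 and human CD4 marks the proximal promoter P2, and were sorted with and without the CD4 reporter. RUNX1C KO PreMegEs came from mice labelled as RUNX1C knockout, in which the P1 product RUNX1C is lost and the P2 promoter remains. P2+ and P2- cells were therefore fractions of reporter PreMegEs, whereas WT and RUNX1C KO PreMegEs were not divided by P2 activity. The paper refers to Runx1 haploinsufficiency in the reporter cells. In comparisons of P2+ or P2- with WT, the fraction and the reporter genotype cannot be told apart.

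In genomic imprinting 1 parental copy of a gene is silenced by DNA methylation set in the germ line, and many imprinted genes control growth before birth. Igf2, H19, Dlk1, Meg3, Peg3, Plagl1, Ndn, Grb10 and Igf2r belong to a set of such genes that are often active together in embryonic tissues and in stem cells and are turned down after birth. Several of them are known from haematopoietic stem cells, where their RNA is lost as the cells commit to a lineage. A gene count adds both parental copies, so imprinting itself cannot be read from these values.

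The total per library was 10726098 to 14445026 counts, and 3 counts, the most that a reading of 0 allows, equalled 0.208 to 0.280 CPM (counts scaled to the library total), which covers counting error only. All other CPM values, but for the limit given for H19 over all libraries, were also scaled with edgeR's TMM factors. Runx1, counted over both promoters together, had 341 to 381 CPM in RUNX1C KO and 357 to 387 CPM in WT libraries, and this sum does not check the loss of the P1 product. Replicate 2 of P2- and of P2+ stood apart by the immediate early gene Fos, with 1326 and 903 CPM against 0.318 to 166 CPM in the other libraries. Results of the 4 members tested are given without them as well where they enter. A list of 15 erythroid markers summed to 5941 to 6784 CPM in P2-, 5715 to 6436 in RUNX1C KO, 3348 to 3855 in WT and 1328 to 1503 in P2+ libraries, and none of the markers was at 0 in any group. A list of 14 stem cell markers, also with none at 0, ran the other way, with 1101 to 1228 CPM in P2+, 781 to 817 in WT, 540 to 582 in RUNX1C KO and 415 to 476 in P2-. As a check of the cell type, 15 megakaryocyte markers summed to 1785 to 2494 CPM in P2+, 1137 to 1296 in WT, 904 to 966 in RUNX1C KO and 431 to 549 in P2-, so that both lineages were read in every group (Gp6 alone had 0 counts in 1 group, P2+). In sorted bulk cells, fewer cells of a type and less RNA per cell cannot be told apart.

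Promoter windows were read from RefSeq (GRCm38.p6), from 250 bases before to 50 bases after each annotated start, and 8 of the members had a total of 13 windows that were searched. Windows are printed below from their first base to 30 bases after the start for Igf2r and Grb10, which were lower in P2+ than in P2- cells, and for Ndn and Dlk1, which had more counts in P2+ cells. Capitals mark 4 sets of letters that were searched on both strands. The letters for RUNX factors were TGTGGT, with TGCGGT as a variant. Those for GATA factors were AGATAA, with TGATAA as a variant. ZFP57 was searched as TGCCGC, and the factor PLAGL1, encoded by the member Plagl1, as GGGGCCCC.
Igf2r, chr17:12769677-12769956, minus strand: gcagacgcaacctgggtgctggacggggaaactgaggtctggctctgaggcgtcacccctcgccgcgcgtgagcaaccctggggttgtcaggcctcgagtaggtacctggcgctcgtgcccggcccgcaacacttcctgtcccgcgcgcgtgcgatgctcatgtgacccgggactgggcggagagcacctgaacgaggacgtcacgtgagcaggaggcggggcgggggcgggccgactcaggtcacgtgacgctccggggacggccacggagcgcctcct
Grb10, chr11:12037391-12037670, minus strand: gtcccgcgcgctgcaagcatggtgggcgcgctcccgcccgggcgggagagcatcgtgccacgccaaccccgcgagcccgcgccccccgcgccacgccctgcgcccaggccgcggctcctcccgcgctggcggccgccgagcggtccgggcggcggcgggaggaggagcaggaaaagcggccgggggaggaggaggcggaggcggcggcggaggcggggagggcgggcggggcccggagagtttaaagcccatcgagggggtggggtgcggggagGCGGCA
Ndn, chr7:62348027-62348306, plus strand: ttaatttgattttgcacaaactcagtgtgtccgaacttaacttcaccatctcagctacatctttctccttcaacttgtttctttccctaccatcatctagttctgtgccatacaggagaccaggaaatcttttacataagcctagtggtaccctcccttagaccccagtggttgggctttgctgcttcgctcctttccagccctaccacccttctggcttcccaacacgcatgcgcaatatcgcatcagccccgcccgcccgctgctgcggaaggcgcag
Dlk1, chr12:109452573-109452852, plus strand: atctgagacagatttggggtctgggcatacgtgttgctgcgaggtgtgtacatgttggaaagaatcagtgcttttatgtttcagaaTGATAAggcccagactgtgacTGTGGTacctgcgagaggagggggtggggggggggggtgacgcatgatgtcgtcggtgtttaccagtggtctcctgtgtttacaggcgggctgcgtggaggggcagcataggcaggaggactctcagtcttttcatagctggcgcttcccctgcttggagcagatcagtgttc
The Dlk1 window held TGTGGT at position -143 and TGATAA at position -164 from the start. The first Grb10 window held the ZFP57 letters on the opposite strand at position 25, and the Igf2r and Ndn windows and the second Grb10 window held none of the 4 sets. Among the other members, TGTGGT was found in 1 Meg3 window, TGCGGT in 1 Igf2 window, the ZFP57 letters in 1 window each of Plagl1, Igf2 and Meg3, and GGGGCCCC in the Peg3 window. Of 32851 windows of all genes, 22.4% held the RUNX, 18.6% the GATA, 11.6% the ZFP57 and 1.08% the PLAGL1 letters. A match of letters is not a measured binding site.

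The 10 members divided by level. Grb10, Impact and Igf2r had at least 30 counts in every library, Ndn had between 0 and 72 counts, and the other 6 together had 161 counts over all 12 libraries. Per length of exon, Grb10 was the highest member in WT PreMegEs, with an RPKM (CPM per kilobase of exon) of 22.9 ± 0.315 (SD, n = 3), followed by Impact with 9.39 ± 1.53, Igf2r with 1.58 ± 0.264 and Ndn with 0.9997 ± 0.412. In P2+ PreMegEs the last pair stood in the other order, with an RPKM of 1.26 ± 0.161 for Ndn and 0.375 ± 0.155 for Igf2r (SD, n = 3). This RPKM divides by the exons of all annotated transcripts of a gene, which lowers the value of a gene with many.

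**Figure D1:**
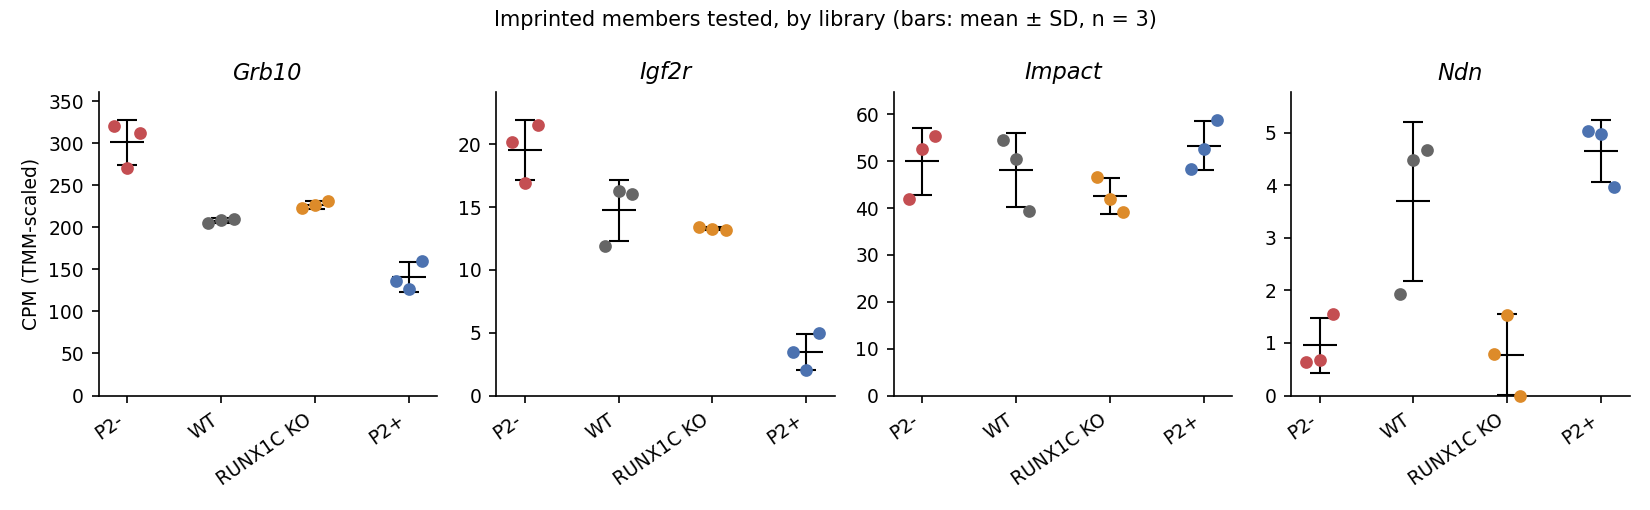
CPM (TMM-scaled, linear axis from 0) of Grb10, Igf2r, Impact and Ndn in each library of the P2-, WT, RUNX1C KO and P2+ groups; points are libraries and bars the mean ± SD of 3. Grb10 and Igf2r have their lowest libraries in P2+ (126.8 and 2.07 CPM), Ndn its lowest in RUNX1C KO and P2-, and neighbouring groups overlap for Impact.

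Igf2r (ENSMUSG00000023830, chromosome 17 from 12682406 to 12769664, minus strand) encodes the receptor for IGF2 and mannose 6-phosphate, which removes IGF2 from the cell surface and carries lysosomal enzymes. It had 20.2, 16.9 and 21.6 CPM in the P2-, 11.9, 16.3 and 16.0 in the WT, 13.5, 13.3 and 13.2 in the RUNX1C KO and 3.43, 2.07 and 4.96 in the P2+ libraries. Every P2+ library lay below every library of the other groups, and the WT and RUNX1C KO libraries overlapped. Igf2r was 5.58-fold lower in P2+ PreMegEs than in P2- PreMegEs (log2 fold change -2.48 ± 0.29 SE, adjusted p = 0.000237 by the quasi-likelihood test of edgeR after Benjamini-Hochberg adjustment). Without replicate 2 of both fractions the log2 fold change was -2.29. Against WT, Igf2r was 4.23-fold lower in P2+ PreMegEs (log2 fold change -2.08 ± 0.29 SE, edgeR adjusted p = 0.000986), and -1.81 on the log2 scale without P2+ replicate 2. P2- lay above WT without overlap, by a log2 value of 0.41 (95% interval 0.04 to 0.79) that missed the threshold (adjusted p = 0.125), also without P2- replicate 2 (0.50, adjusted p = 0.0636). For RUNX1C KO against WT the log2 value was -0.16 (95% interval -0.50 to 0.18, adjusted p = 0.594). The erythroid marker sum was lowest in P2+ libraries as Igf2r was, and higher in RUNX1C KO than in WT libraries, and its part in the Igf2r values was not tested. The WT mean stood at 29.99% of the distance between the P2- mean (0%) and the P2+ mean. Igf2r overlaps the antisense gene Airn, the long RNA that silences the paternal Igf2r copy in other tissues. They share no exonic base, and Airn had 1 to 21 counts per library.

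Grb10 (ENSMUSG00000020176, chromosome 11 from 11930508 to 12038683, minus strand) encodes an adaptor that binds the insulin and IGF1 receptors and restrains their signalling. Its level was 321, 270 and 312 CPM in the P2-, 223, 226 and 231 in the RUNX1C KO, 205, 209 and 210 in the WT and 136, 127 and 160 in the P2+ libraries. All 4 groups followed each other in this order without overlap. Grb10 fell 2.12-fold in P2+ relative to P2- PreMegEs (log2 fold change -1.08 ± 0.11 SE, edgeR adjusted p = 9.19e-05), with -1.08 also without replicate 2 of both fractions. The WT level differed from both, by less than 2-fold. P2+ was lower than WT by a log2 fold change of -0.56 ± 0.09 SE (edgeR adjusted p = 0.00248) and P2- higher by 0.54 ± 0.08 SE (edgeR adjusted p = 0.00202), which became -0.49 and 0.60 without replicate 2 of the fraction. For RUNX1C KO against WT the log2 value of 0.12 (95% interval -0.01 to 0.24) did not pass (adjusted p = 0.217), although the libraries did not overlap. The median erythroid marker sum stood in the same order of groups as Grb10, and its part in the Grb10 values was not tested. On the CPM scale WT stood at 58.1% and RUNX1C KO at 46.4% of the distance between the P2- mean and the P2+ mean.

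Ndn (ENSMUSG00000033585, chromosome 7 from 62346569 to 62350262, plus strand, with 1 exon) encodes necdin, which holds back cell division and is known from quiescent stem cells. The libraries had 60, 72 and 52 counts in P2+, 28, 53 and 64 in WT, 8, 7 and 22 in P2- and 9, 18 and 0 in RUNX1C KO PreMegEs. In CPM these were 5.03, 4.97 and 3.96 in P2+, 1.94, 4.48 and 4.66 in WT, 0.637, 0.672 and 1.55 in P2-, and 0.786, 1.54 and 0 in RUNX1C KO libraries. P2+ overlapped with WT and P2- with RUNX1C KO, and every library of the first pair of groups lay above every library of the second pair. In the comparisons of P2+ with P2-, P2- with WT and RUNX1C KO with WT, Ndn reached the filter of 1 CPM in 3 libraries through its high group. It was 4.79-fold higher in P2+ than in P2- PreMegEs (log2 fold change 2.26 ± 0.40 SE, edgeR adjusted p = 0.00241), and 2.02 on the log2 scale without replicate 2 of both. P2+ and WT differed by a log2 value of 0.34 (95% interval -0.44 to 1.12, adjusted p = 0.564), and by 0.29 without P2+ replicate 2.

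Relative to WT, Ndn was lower in the P2- fraction, at a log2 fold change of -1.91 ± 0.49 SE (edgeR adjusted p = 0.0244) and in RUNX1C KO PreMegEs by -2.22 ± 0.61 SE (edgeR adjusted p = 0.0192). Both calls were lost without any 1 of several libraries. For P2- the log2 value was -1.68 (adjusted p = 0.0744) without P2- replicate 1, -1.75 (0.0919) without WT replicate 2 and -1.70 (0.0857) without WT replicate 3, and it passed in 10 of 13 alternatives, among them the fit without P2- replicate 2 (-1.73, adjusted p = 0.0359). For RUNX1C KO it was -2.22 (adjusted p = 0.0601) without RUNX1C KO replicate 1, -1.66 (0.054) without RUNX1C KO replicate 3, the library with 0 counts, -2.06 (0.0666) without WT replicate 2, -2.01 (0.0584) without WT replicate 3 and -2.25 (0.23) with DESeq2. Without RUNX1C KO replicate 2 it was -3.18 (adjusted p = 0.00911), and 8 of 13 alternatives passed. The stem cell marker sum was also lower in P2- and RUNX1C KO than in WT libraries, and its part in the Ndn values was not tested. The 2 comparisons share the WT libraries. The difference between P2- and RUNX1C KO PreMegEs was not tested.

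Impact (ENSMUSG00000024423, chromosome 18 from 12955852 to 12992950, plus strand) encodes an inhibitor of the amino acid sensing kinase GCN2. It had 41.9, 52.5 and 55.4 CPM in the P2-, 54.6, 50.4 and 39.4 in the WT, 46.7, 41.8 and 39.1 in the RUNX1C KO and 48.4, 52.7 and 58.9 in the P2+ libraries. Neighbouring groups in the order of the means overlapped, while the highest RUNX1C KO library lay below the lowest P2+ library, a pair that was not tested. No comparison passed, and the 95% interval of the log2 value was -0.19 to 0.40 for P2+ against P2- (edgeR adjusted p = 0.559) and -0.43 to 0.06 for RUNX1C KO against WT (adjusted p = 0.339). The intervals against WT were -0.13 to 0.43 for P2+ and -0.25 to 0.36 for P2-. These intervals leave out a change of 2-fold in Impact in each of the 4 comparisons. Without replicate 2 of the fractions the log2 value was 0.15 for P2+ against P2-, 0.16 for P2+ against WT and 0.01 for P2- against WT.

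**Figure D2:**
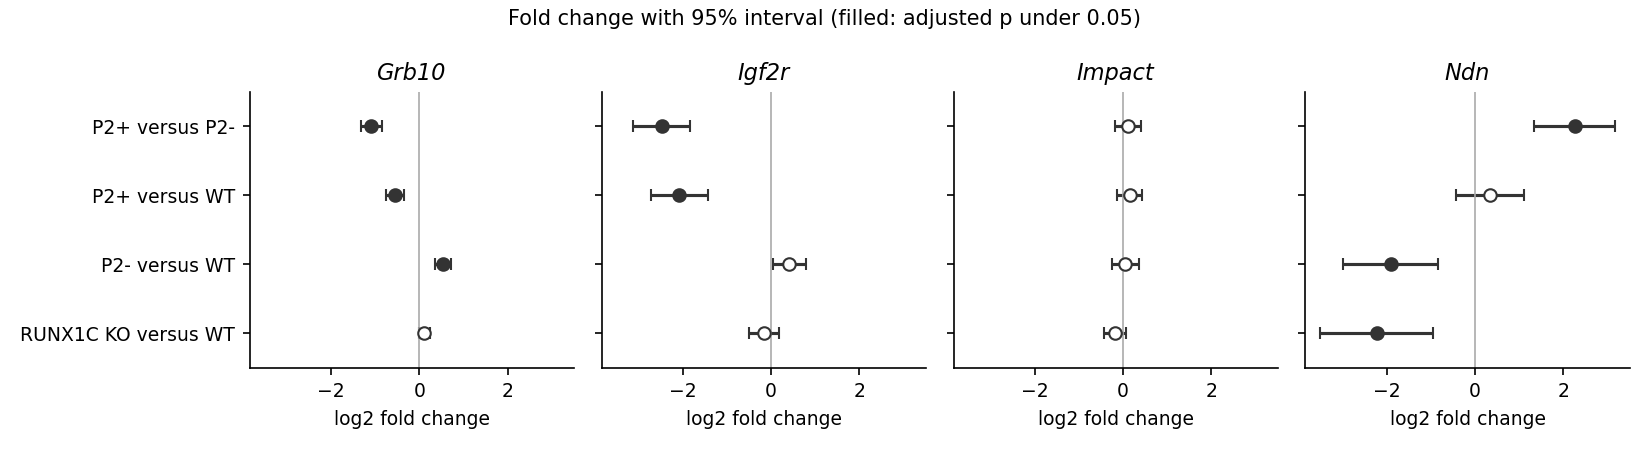
Log2 fold change (points) with its 95% interval (bars) from edgeR's quasi-likelihood test for the 4 members tested, in 4 comparisons of 3 libraries with 3; filled points have an adjusted p under 0.05. Igf2r and Grb10 lie left of 0 in P2+ against P2- and against WT, Ndn lies right of 0 in P2+ against P2- and left of 0 in P2- and RUNX1C KO against WT, and Impact is open throughout.

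The counts of members can be read against those of all genes. Between P2+ and P2- PreMegEs, 1 member was higher and 2 were lower of the 4 tested, where 20.1% of 12836 tested genes were higher and 17% lower. All 3 had changed by at least 2-fold, as did 12.7% of all tested genes. In P2+ against WT, 0 members were higher and 2 lower of 4, with 9.45% and 7.07% of all genes, and 1 passed with at least 2-fold (3.84% of all genes). In P2- against WT, 1 was higher and 1 lower, with 6.85% and 9.6% of all genes, and 1 passed with at least 2-fold (4.68%). In RUNX1C KO against WT, 0 were higher and 1 lower, with 6.18% and 8.76% of all genes, and this one, Ndn, passed with at least 2-fold (3.41%). With 4 members tested, and Ndn tested through its high group, these counts say nothing about the 10 members as a set.

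Plagl1 (ENSMUSG00000019817, chromosome 10 from 13060504 to 13131694, plus strand) encodes a zinc finger factor that binds other genes of the network. Its counts were 8, 8 and 5 in WT, 9, 3 and 11 in P2+, 2, 2 and 0 in RUNX1C KO and 0, 0 and 0 in P2- libraries. WT and P2+ overlapped, and every WT and P2+ library lay above every P2- and RUNX1C KO library. In P2+ PreMegEs the scaled Plagl1 count was 7.42 times the limit of 3 counts over the P2- group, and in WT 6.74 times. These ratios leave out the counting error of the P2+ and WT counts and the spread between libraries, so they are not lower bounds. They were 4.92 and 4.47 without P2- replicate 1 and 4.596 and 4.17 without P2- replicate 3, since fewer libraries carry the limit. Plagl1 did not reach the filter. In the edgeR fit without a filter the adjusted p was 0.0235 for P2+ against P2- and 0.0327 for P2- against WT, and the exact permutation test gave 0.1, the smallest value that 3 libraries against 3 allow. In RUNX1C KO PreMegEs the summed count was 0.219 of that in WT after scaling (95% counting interval 0.0547 to 0.649, adjusted p = 0.333 without a filter).

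Dlk1 (ENSMUSG00000040856, chromosome 12 from 109452823 to 109463336, plus strand) encodes a membrane protein related to Notch ligands that marks immature cells. The libraries had 17, 20 and 8 counts in P2+, 4, 3 and 2 in WT, 4, 0 and 3 in P2- and 3, 4 and 4 in RUNX1C KO PreMegEs. Each P2+ library exceeded all 9 others, which overlapped. The summed count in P2+ was 6.22 times that in P2- (95% counting interval 2.79 to 16.4) and 5.03 times that in WT (2.43 to 11.7). With 1 library left out at a time the ratio to P2- was 4.46 to 9.64, the highest without P2- replicate 1 (45 counts against 3, interval 3.09 to 48.5), and the ratio to WT 4.23 to 6.20. Dlk1 did not pass in the edgeR fit without a filter (adjusted p = 0.0539 and 0.0721), and the exact permutation p was 0.1 in both. The counting intervals leave out the spread between libraries. The stem cell marker sum was likewise highest in P2+ libraries, and its part in the Dlk1 and Plagl1 counts was not tested. A list of 12 stroma markers summed to 43.4 to 57.6 CPM in P2+, 51.6 to 57.2 in P2-, 49.6 to 54.1 in RUNX1C KO and 68.1 to 111 in WT libraries. Col3a1 was at 0 in every library. Also at 0 were Bglap, Col1a1, Pdgfra and Sp7 in P2+, Col1a1 and Sp7 in P2-, and Pdgfra and Sp7 in RUNX1C KO libraries. Other lists were higher in P2+ than in P2- libraries as Dlk1 was. A list of 9 endothelium markers summed to 154.8 to 188 CPM in P2+, 116 to 120.3 in WT, 97.4 to 122 in RUNX1C KO and 83.7 to 92.2 in P2-, with Stab2 at 0 in WT. For 12 neutrophil and monocyte markers, none at 0 in any group, the sums were 320.0 to 445, 179 to 310, 80.5 to 131 and 66.8 to 161 CPM in the same order of groups, and for 9 mast cell and basophil markers 100.4 to 157, 30.9 to 55.2, 54.2 to 74.9 and 31.8 to 37.6 CPM, with Cma1 and Tpsb2 at 0 in every group. For 12 lymphoid markers they were 34.6 to 99.7, 30.7 to 46.3, 21.9 to 24.8 and 13.9 to 21.1 CPM, with Cd3g at 0 in every group and Cd3e at 0 in P2+ and P2-. Of the mast cell and basophil markers, Fcer1a, Gzmb, Mcpt8 and Prss34 were also at 0 in P2-, and Gzmb and Prss34 in RUNX1C KO libraries. The part of these cells in the Dlk1, Plagl1 and Ndn values was not tested.

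Meg3 (ENSMUSG00000021268, chromosome 12 from 109541001 to 109571726, plus strand) is the long noncoding RNA made from the maternal copy of the Dlk1 region. It had 1, 8 and 1 counts in P2-, 2, 4 and 3 in P2+, 4, 1 and 0 in RUNX1C KO and 0, 0 and 0 in WT libraries. Of the 10 counts in P2-, 8 were in replicate 2, and 2 remained without it. In P2+ PreMegEs the scaled Meg3 count was 3.02 times the limit of 3 counts over the WT group. Without WT replicates 1 and 3 this ratio was 1.93 and 1.97. It leaves out the counting error of the P2+ counts and the spread between libraries, so it is not a lower bound. For P2- no such ratio is given, since the counts left without replicate 2 are under that limit. Neither fraction passed against WT without a filter (adjusted p = 0.176 and 0.136 in edgeR). Meg3 overlaps Gm26906 on the other strand, which had 0 counts in every library.

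The H19 and Igf2 pair was at or near the limit. H19 (ENSMUSG00000000031, chromosome 7 from 142575529 to 142578143, minus strand), a maternally expressed noncoding RNA, had 0 counts in all 12 libraries, which over their 150756391 counts allows up to 0.0199 CPM. Igf2 (ENSMUSG00000048583, chromosome 7 from 142650766 to 142666816, minus strand), the fetal growth factor, had 6 counts in all, with 3 and 1 in P2+ replicates 1 and 2 and 2 in P2- replicate 1. Peg3 (ENSMUSG00000002265, chromosome 7 from 6703892 to 6730431, minus strand), a zinc finger repressor, had 11 counts, 6 of them in RUNX1C KO replicate 2, 3 in WT replicate 1 and 2 in P2+ replicate 1. For these 3 genes no difference was detectable at this depth. Igf2 shares exonic bases with the antisense gene Igf2os, which had 0 to 6 counts per library.

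**Figure D3:**
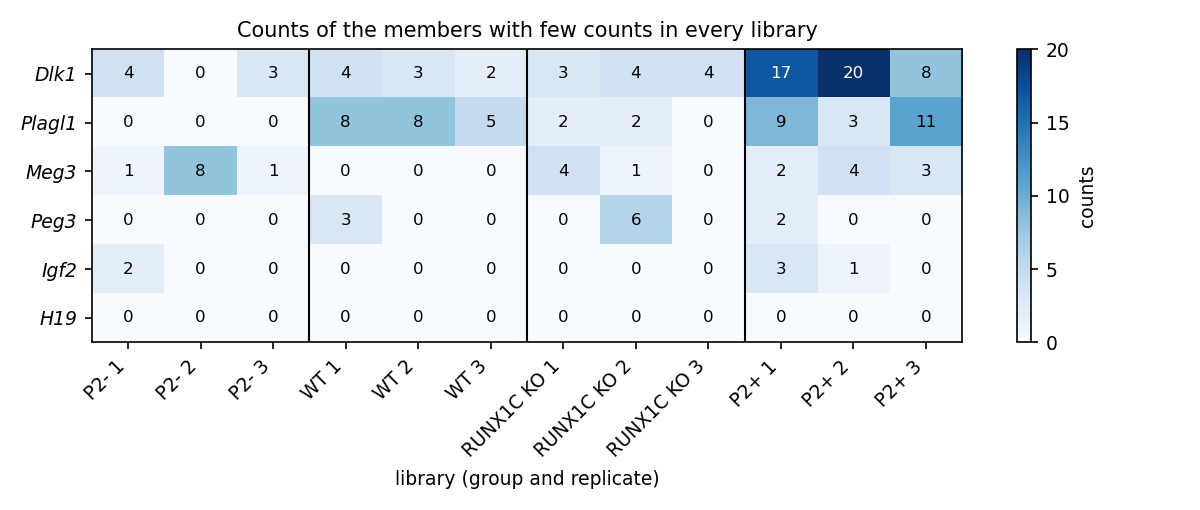
Counts per library of the 6 members that reached 1 CPM in too few libraries to be tested; rows are genes, columns the 3 libraries of each group, and colour follows the printed count from 0 to 20. Dlk1 is highest in the P2+ libraries (17, 20 and 8), Plagl1 is at 0 in P2- and has counts in all WT and P2+ libraries, and H19 is at 0 throughout.

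Other genes of the network ranged from silent to readily measured. In a list of 25, 12 had at most 3 counts in any library, among them Mest, Nnat, Rtl1, Dio3 and Magel2, and 10 could be tested. Between P2+ and P2- PreMegEs, 3 of the 10 were higher and 2 lower, next to 20.1% and 17% of all tested genes, with a median log2 fold change of -0.01 against -0.02 over all tested genes. Cdkn1c, which encodes the cell cycle inhibitor p57, rose from 2.49 ± 0.772 to 5.70 ± 1.80 CPM (SD, n = 3; log2 fold change 1.21), and Sgce, which encodes a sarcoglycan, by 1.20. Neither passed without replicate 2 of both fractions (0.88, adjusted p = 0.111, and 0.89, adjusted p = 0.0604, in edgeR). Cdkn1c passed in 10 and Sgce in 13 of 14 alternatives. Peg12 had a value of 0.61 and passed in 12 of 14 alternatives, but not without P2+ replicate 1 (0.57, edgeR adjusted p = 0.0549) or P2+ replicate 3 (0.57, adjusted p = 0.0536). Gatm, which encodes the first enzyme of creatine synthesis, fell from 159 ± 29.7 to 44.7 ± 12.99 CPM (SD, n = 3; log2 fold change -1.82, edgeR adjusted p = 0.000278). Zrsr1, with a value of -0.75, lies within Commd1 on the other strand and is uncertain.

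Gatm also differed between WT and each of the other groups, while its P2- and RUNX1C KO libraries overlapped and were not compared. It had 89.5 ± 8.76 CPM in WT and 135 ± 10.4 in RUNX1C KO libraries (SD, n = 3), a log2 fold change of 0.58 (edgeR adjusted p = 9.26e-05), and passed in P2+ against WT (-1.001) and in P2- against WT (0.83). The erythroid marker sum had its medians in the order of the Gatm means, and its part in the Gatm values was not tested. In P2+ against WT, with 9.45% of all genes higher and 7.07% lower, 1 of the 10 genes was higher, Cdkn1c (1.07, adjusted p = 0.0462, past the threshold in 7 of 13 alternatives and with 0.77 and adjusted p = 0.151 without P2+ replicate 2), and 1 lower. In P2- and in RUNX1C KO against WT, Gatm was the 1 gene higher (6.85% and 6.18% of all genes) and 0 were lower (9.6% and 8.76%). The medians of the list against WT were -0.04 in P2+, -0.06 in P2- and -0.06 in RUNX1C KO, next to 0.00, 0.01 and 0.00 over all tested genes.

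Of 33 imprinted genes outside the network, 30 were in the table and 20 were tested. Between P2+ and P2- PreMegEs 4 of the 20 were higher and 2 lower, which is near or under the 20.1% and 17% of all genes (median 0.15 against -0.02). With the replicate number as a block 7 were higher and 3 lower, next to 25.9% and 24.8% of all genes. Sfmbt2, a Polycomb group gene, rose by 1.63 on the log2 scale, Osbpl5 by 1.30 and Ppp1r9a by 0.84, while Slc22a18 fell by 1.12 and Nap1l4, a histone chaperone gene, by 0.43. Slc22a18 had 1.40 and 3.08 CPM and passed in 9 of 14 alternatives. In P2+ against WT 4 were higher and 1 lower (9.45% and 7.07% of all genes), led by Htr2a (1.15) and Osbpl5 (0.96), of which Osbpl5 passed in 5 of 13 alternatives. The lower gene, Nap1l4 (-0.23, edgeR adjusted p = 0.0489), passed in 4 of 13 and in 0 of the 6 with a library left out (-0.25 to -0.21). Atp10a was the 1 gene lower in P2- than in WT (-0.35, 8 of 13 alternatives), and Ppp1r9a the 1 gene lower in RUNX1C KO than in WT (-0.55, edgeR adjusted p = 0.00098), with 0 higher in either, next to 6.85% higher and 9.6% lower of all genes in P2- and 6.18% and 8.76% in RUNX1C KO. The medians against WT were 0.08 in P2+, -0.01 in P2- and -0.02 in RUNX1C KO.

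The ligands and partners of Igf2r and Grb10 were examined with a list of 24 genes of the IGF and insulin axis, of which 10 were tested and 9 had at most 3 counts in any library, Igfbp2 and Igfbp3 among them. Between P2+ and P2- PreMegEs 3 of the 10 were higher and 3 lower, next to 20.1% and 17% of all genes (median -0.01 against -0.02). Igf2bp2, whose protein binds Igf2 and other RNAs, rose from 11.4 ± 1.14 to 30.8 ± 0.835 CPM (SD, n = 3; log2 fold change 1.44, edgeR adjusted p = 5.69e-05). Igfbp4 rose by 0.37 and Akt1 by 0.29, each past the threshold in 10 of 14 alternatives. Irs2, a substrate of the insulin and IGF1 receptors, fell by 1.126 on the log2 scale, M6pr by 0.32 and Igf1r by 0.32. Irs2 passed in 10 of 14 alternatives, with -0.85 (edgeR adjusted p = 0.0838) without P2- replicate 2, -1.67 (0.0016) without P2+ replicate 2 and -1.39 (7.48e-05) without both. Igf1r passed in 9 and M6pr in 13 of 14.

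M6pr encodes the smaller of the mannose 6-phosphate receptors, the counterpart of Igf2r in lysosomal transport. It had 377 ± 5.15 CPM in P2-, 390 ± 7.36 in RUNX1C KO, 312 ± 2.77 in WT and 299 ± 5.47 in P2+ libraries (SD, n = 3), so that it was higher in RUNX1C KO than in WT (0.31, edgeR adjusted p = 0.000879), where Igf2r did not pass. Against WT, 1 gene was higher and 1 lower in P2+ (Igf2bp2, 0.93, and Igf1r, -0.64), 2 were higher and 1 lower in P2- (Irs2, M6pr and Igf2bp2), and 2 were higher and 2 lower in RUNX1C KO (Irs2, 0.81, and M6pr; Igf1r, -0.23, and Igfbp4, -0.23). Of all genes, 9.45% were higher and 7.07% lower in P2+, 6.85% and 9.6% in P2-, and 6.18% and 8.76% in RUNX1C KO. Of the list genes, Irs2 in P2- and RUNX1C KO passed in 11 and 12 of 13 alternatives, M6pr and Igf2bp2 in P2- in 6 and 5 and Igf1r and Igfbp4 in RUNX1C KO in 7 and 9 of 13. The list medians against WT were -0.06 in P2+, -0.10 in P2- and -0.09 in RUNX1C KO.

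Of 12 genes that keep imprints through cell division, 10 were tested, and between P2+ and P2- PreMegEs 5 were higher and 0 lower, next to 20.1% and 17% of all genes (median 0.19 against -0.02). Zfp57, whose protein binds methylated imprinting control regions, had 45, 50 and 49 counts in P2+, 51, 42 and 28 in WT, 12, 6 and 11 in P2- and 13, 19 and 22 in RUNX1C KO libraries. All P2+ and WT libraries lay above those of P2- and RUNX1C KO. The stem cell marker sum had the same order of groups as the Zfp57 means, and its part in the values of Zfp57 and the other genes of this list was not tested. Every P2- library was under 1 CPM, so Zfp57, one of the 5, reached the filter in both comparisons of P2- through its high group. In CPM, Zfp57 was higher in P2+ than in P2- by a log2 fold change of 2.23 ± 0.35 SE (edgeR adjusted p = 0.00126) and lower in P2- than in WT by -1.95 (adjusted p = 0.00997), and did not pass in RUNX1C KO against WT (-0.94, adjusted p = 0.125). Hells and Dnmt1, which act in copying DNA methylation, rose by 0.80 and 0.47 between P2- and P2+. The paper reports more P2+ than P2- PreMegEs in S phase, and the part of the cell cycle in the values of this list was not tested. Against WT, Hells (0.64) and Uhrf1 (0.35) were higher and Arid4a (-0.27) lower in P2+, Dnmt1 (-0.27) and Zfp57 lower in P2-, and 0 genes passed in RUNX1C KO in the edgeR test. The shares of all genes in these comparisons were those given for the IGF and insulin axis. Against WT, Arid4a and Dnmt1 each passed in 6 of 13 alternatives and Uhrf1 in 12. The list medians against WT were 0.16, -0.02 and 0.02 in P2+, P2- and RUNX1C KO.

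**Figure D4:**
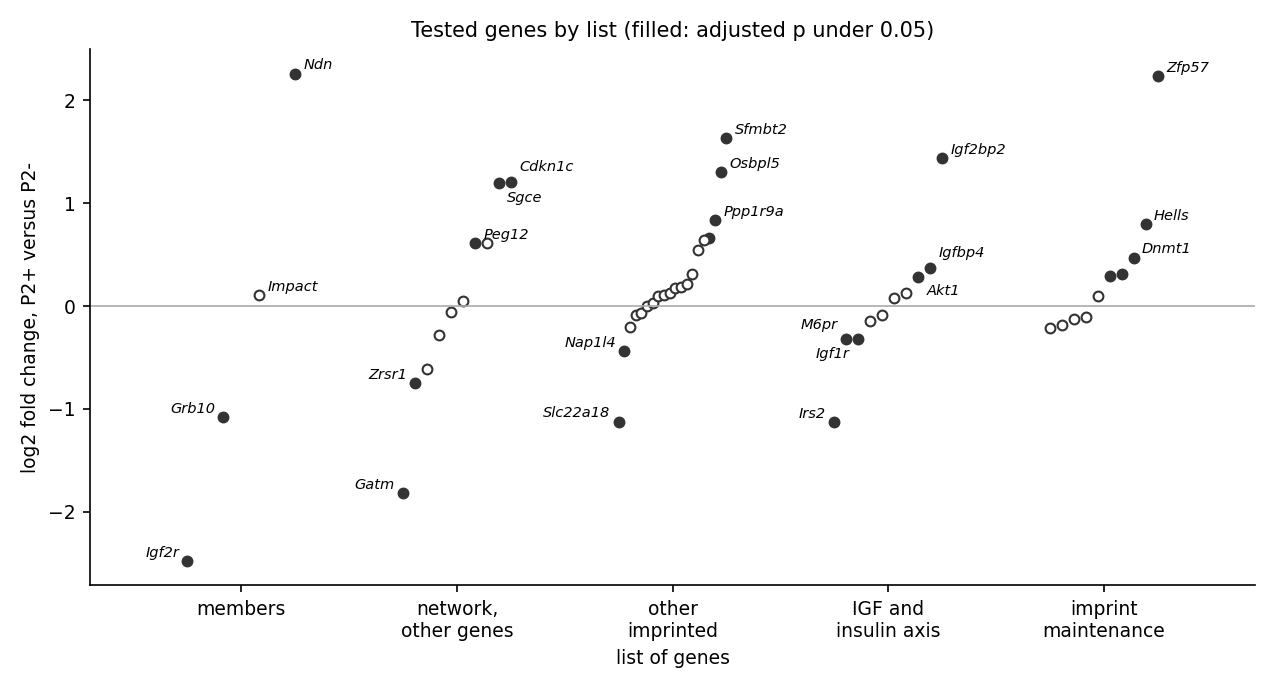
Log2 fold change of P2+ against P2- PreMegEs for the 4 members tested and for the tested genes of 4 lists; each point is a gene, and filled points have an adjusted p under 0.05 in edgeR's quasi-likelihood test. Igf2r (-2.48) and Gatm (-1.82) are the lowest points, and Ndn (2.26) and Zfp57 (2.23) the highest.

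Among 10728 genes with a mean of at least 5 CPM, those whose log2 CPM followed a member most closely over the 12 libraries were Ago1 (Pearson's r = 0.983), Brat1 (0.973) and Zfp54 (0.969) for Igf2r. For Grb10 they were Psmd7 (0.992), Npm1 (0.985) and Eif4b (0.978), and for Impact Itgb3bp (0.853), Lcorl (0.819) and Clpb (0.815). The 12 points fall into 4 groups, share library depth and the difference between P2+ and P2- cells, and the correlations are a description. Ndn and the 6 rare members were too low for this comparison.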

How the data were processed

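Poly(A) RNA of 12 PreMegE libraries was sequenced as strand-specific paired reads. Bowtie2 (alignment to GRCm38) and featureCounts (Ensembl annotation) were used by the authors, who deposited whole-number counts for every gene and library, not normalized. Whether counting used the strand, how reads with several alignments were treated and whether the RUNX1C KO libraries were processed with the others is not given in the sources used here. Overlapping genes are therefore uncertain, and a batch of the RUNX1C KO libraries and their genotype cannot be told apart.

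P2+ with P2-, and P2+, P2- and RUNX1C KO each with WT, were compared 3 against 3 with edgeR 4.0.16 in R 4.3.3. Genes reaching 1 CPM in 3 or more of the 6 libraries were tested. TMM scaling, the quasi-likelihood test on group alone and Benjamini-Hochberg adjustment over all genes tested were used. RUNX1C KO was not compared with P2- or P2+. A gene passed at an adjusted p under 0.05, and fold changes are edgeR estimates. The fits were tested on simulated data. Exonic lengths and positions came from GENCODE vM21 (GRCm38). The WT libraries enter 3 of the comparisons, and P2+ and P2- libraries 2 each, so the comparisons are not independent. Nothing in the labels says how pools relate to cultures or days beyond 3 mice per sample, and p-values measure the spread between these pools. No replicates were duplicates of each other, since chi-square over degrees of freedom for pairs was 4.49 to 32.8. The values given are from the fit without a block. The replicate numbers of P2+ and P2- do pair these libraries, since same-numbered libraries deviated together from their group means (correlations across genes of 0.402, 0.59 and 0.432), and blocked values are given where they change a call of a member or move a count by over 1.5 times. Those of the other comparisons do not, with 1 of 3 correlations over 0.1 in P2+ and WT (0.185) and in RUNX1C KO and WT (0.186) and 0 in P2- and WT.

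The members, lists and tests were chosen with earlier results of these data known. Named genes are all members, in each list up to 3 genes higher and 3 lower with the largest changes among those past the threshold in a comparison, list genes at up to 3 counts, and the 3 genes most like each member. The alternatives were DESeq2 size factors or library totals in place of TMM, no filter, DESeq2 1.42.0, edgeR's exactTest, 1 fit over all 12 libraries, the replicate block and each library left out.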

Additional observations from a re-analysis of the deposited data

How the results depend on the processing

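Grb10 and Igf2r kept their direction and calls between P2+ and P2- PreMegEs, and between P2+ and WT PreMegEs, under every alternative fit, and so did Grb10 between P2- and WT and Ndn between P2+ and P2-. Over these alternatives the log2 fold change between P2+ and P2- ranged from -1.18 to -1.01 for Grb10, from -2.83 to -2.20 for Igf2r and from 2.02 to 2.82 for Ndn. With the replicate block, which is supported as a pairing for P2+ and P2- alone, these were -1.08, -2.51 and 2.30, and 3 members passed, as without the block. The block changed no call of a member in any comparison. Adding a minimum of 2-fold left 1 member past the threshold in P2+ against WT and 1 in P2- against WT, Grb10 being the member lost in both. Without a filter 4 members passed between P2+ and P2- and 3 between P2- and WT, Plagl1 being the one added. Leaving out each library gave 1 to 2 members in P2- against WT and 0 to 1 in RUNX1C KO against WT, and DESeq2 gave 0 in RUNX1C KO against WT, in each case through Ndn. The value of Impact, which passed nowhere, changed sign under 4 alternatives, to -0.0070 between P2+ and P2- without P2- replicate 1 (range 0.19 to -0.0070 with each library left out), and between P2- and WT to -0.0013 with library totals, -0.024 without P2- replicate 3 and -0.069 without WT replicate 3 (range 0.17 to -0.069). Of 212 alternative values of the members, 200 kept direction and call, and 8, all of Ndn, lost the call. For the named list genes, whose alternatives were added after the data had been seen, 476 of 578 values kept direction and call, 102 lost the call and 0 changed sign. The cause was not tested. Ratios without each library, for the members that missed the filter, were added in the same way. Between P2+ and P2- the block raised the genes called from 2576 higher and 2186 lower to 3325 and 3189 (25.9% and 24.8%). For the lists it gave 4 higher and 2 lower network genes, 3 and 4 genes of the IGF and insulin axis and 5 and 1 genes of imprint maintenance, a run added after the data had been seen, and none of the genes called without the block was lost.

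At 10726098 to 14445026 counts per library, a gene under about 1 CPM had few counts. The filter is set on CPM, and 6 of the 10 members reached 1 CPM in too few libraries to be tested.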
